A study of Mus musculus with 9 samples.

Results

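Immediate early genes are switched on within minutes of a signal, without new protein synthesis, and fall silent again soon after. The genes described here are 45 such genes and close relatives: the Fos and Jun subunits of the transcription factor AP-1 with their partners, the EGR and KLF zinc finger factors, the NR4A receptors, and a set of feedback regulators of signalling and mRNA decay. They were chosen by name. A gene entered with the 1 probe set whose gene symbol matched the list, taking the probe set with the highest mean over the arrays where several matched. In this way 42 of the 45 genes were measured, of 12393 genes in all, while Dusp4, Dusp5 and Cd69 are not analysed here. Of the 42 genes, 25 had 1 probe set and 17 had several.

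The arrays measured transcripts of mouse CD4+CD25+ regulatory T (Treg) cells, separated with magnets, in a study that asks whether these cells need the acetyltransferases CBP and p300. There were 3 groups of 3 arrays, each array an independent sample per the design text, and all mice had a C57Bl/6 background. The CBP-deleted group had the genotype fl-CBP/Foxp3cre, the p300-deleted group fl-p300/Foxp3cre, and the control group, also called wild type in the design text, is labelled Foxp3cre control. The Cre recombinase is thus active where Foxp3 is expressed, so that CD4+CD25+ cells without Foxp3 would keep the floxed gene. Age and sex of the mice, the state of stimulation of the cells and whether a sample pooled several mice are not given in the sources used here.

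In T cells, antigen receptor and costimulatory signals reach these genes through MAP kinases, calcium and NF-kappaB. MAP kinases phosphorylate ternary complex factors that sit beside SRF on CArG boxes, and cyclic AMP and calcium signals act on CREB at cyclic AMP response elements (CRE). CBP was named for its binding to phosphorylated CREB. It and p300 are recruited by many factors, acetylate histones and serve as coactivators of AP-1 itself. Products of the first genes then act on later ones: Fos and Jun proteins pair as AP-1, and phosphatases, ZFP36 proteins and RGS proteins end the signal. Immediate early transcripts are also known to rise when cells are isolated from tissue.

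All values are log2 intensities, so that a difference of 1 is a doubling. The median over all probe sets lay between 5.49 and 5.59 on the 9 arrays. The Foxp3 probe set, which reads the transcript that defines Treg cells, gave 9.48 to 9.75 in the controls, 2.73 to 2.97 in the CBP-deleted and 2.58 to 3.19 in the p300-deleted arrays. The controls thus stood 106-fold above the CBP-deleted and 101-fold above the p300-deleted cells, while the knockouts differed by -0.08 (SE 0.16, adjusted p = 0.859). Whether the probe set reads the Cre-bearing allele was not tested. The controls may therefore differ from both knockouts in the Foxp3 allele or its expression as well as in the floxed gene, and in every comparison with the control these cannot be told apart. The comparison between the knockouts does not use the levels of the control arrays. They enter it only through the shared estimate of the spread. Crebbp, the gene of CBP, read 7.36 to 7.67 in the controls and 7.11 to 7.35 in the CBP-deleted arrays, a difference of -0.33 (SE 0.11, adjusted p = 0.123). Which exon was floxed is unstated in the labels, and a probe set outside it would not check the deletion. Ep300, which encodes p300, is not analysed here. Xist, which is not expressed in male cells, read 3.44 to 3.80 while the Y-linked Eif2s3y read 8.18 to 9.30 on all arrays, and a value at the level of Xist is not told from background. Fosl1 alone among the 42 genes stayed below the highest Xist value on every array. Probe sets for 18S ribosomal RNA averaged 7.39 to 8.0 in the CBP-deleted arrays, 7.88 to 9.62 in the p300-deleted arrays, and 5.82, 6.20 and 8.88 in control replicates 1, 2 and 3. Their part in the results was not tested.

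CBP-deleted cells had lower levels of many of these genes than control cells. In p300-deleted cells 0 of them fell at an adjusted p below 0.05. At an unadjusted p below 0.05, 5 were lower there, among them Tob1. In CBP-deleted cells Tob1, an antiproliferative gene, fell 1.83-fold against the control. Zfp36, whose product drives the decay of cytokine mRNAs, fell 1.82-fold and the zinc finger factor Klf4 1.75-fold. The AP-1 genes Junb (1.53-fold), Jund (1.5-fold) and Fos (1.30-fold) fell as well. In all, 11 of the 42 genes fell and 0 rose in limma's test (adjusted p below 0.05 over all genes), where 2.79% of all genes fell and 2.14% rose. Of the 42 genes, 21 were lower and 1 was higher at an unadjusted p below 0.05. How many of all genes passed at this unadjusted threshold was not counted, for any comparison or list given here. At least 1.5-fold was reached by 7 of the 11 that fell at an adjusted p below 0.05. Among all genes, 149 of the 346 that fell reached it. The 3 CBP-deleted arrays lay below the 3 controls in 18 genes and above them in 1, where 14.5% and 10% of all genes were separated in those directions. The difference was negative in 34 of 42 genes and in 7017 of all 12393 genes. Its median was -0.30 over the 42 genes against -0.03 over all genes. The count of 11 became 4 without CBP-deleted replicate 2, 4 without CBP-deleted replicate 3 and 5 without control replicate 1, and 19 when arrays were weighted by their quality. Markers of B cells moved with this comparison: 3 of 7 fell (Cd79a, Cd79b and Cd22), and the mean log2 value of the list was 5.52 to 5.98 in the CBP-deleted, 6.26 to 6.44 in the control and 5.77 to 6.36 in the p300-deleted arrays, with Pax5 and Cr2 below the highest Xist value in the means of every group. Of 8 markers of NK and CD8 T cells, Cd8b1 (1.67-fold, adjusted p = 0.00847) and Gzmk (2.03-fold, adjusted p = 0.00898) rose and 0 fell. At an unadjusted p below 0.05, 2 of the 8 were higher and 2 (Nkg7 and Prf1) lower. The list means were 6.52 to 6.84, 6.57 to 6.77 and 6.78 to 7.08 in the same order. Of 5 erythroid cell and platelet markers Alas2 fell (2.14-fold, adjusted p = 0.0490), with list means of 4.03 to 4.12, 4.31 to 5.11 and 3.93 to 4.39. Of 9 Treg and CD4 T cell markers Ctla4 rose (1.47-fold, adjusted p = 0.0165) and Foxp3 fell. Their part in the result was not tested. In such bulk samples, fewer cells that express a gene and less RNA of it per cell cannot be told apart.

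Against the control, 4 of the 42 genes rose in p300-deleted cells and 0 fell: Jun (1.98-fold), the antiproliferative genes Btg2 (2.54-fold) and Btg1 (1.37-fold), and Rgs1 (1.53-fold), a brake on chemokine receptor signals. Over all genes 2.02% rose and 2.04% fell (250 and 253 genes, or 192 and 300 with the median of each array subtracted). At an unadjusted p below 0.05, 10 of the 42 were higher and 5 lower, with the share of all genes not counted. Of the 4 genes, 3 changed at least 1.5-fold, as did 130 of the 250 among all genes that rose. The p300-deleted arrays lay above the controls in 7 genes and below them in 2, where 8.76% and 11.5% of all genes did. The median difference was 0.08, against -0.02 over all genes, and 0.18 without p300-deleted replicate 3. The count of 4 became 2 without p300-deleted replicate 2 and 8 without control replicate 3. Markers of plasma cells and of mast cells and basophils moved with this group. Of 5 plasma cell markers 4 rose (Jchain, Sdc1, Tnfrsf17 and Xbp1, not Prdm1), and the mean log2 value of the list was 8.65 to 9.11 in the p300-deleted, 7.97 to 8.09 in the control and 7.92 to 8.22 in the CBP-deleted arrays. Of 6 mast cell and basophil markers 4 rose (Mcpt8, Fcer1a, Cma1 and Cpa3, not Kit or Ms4a2, the latter at the level of Xist), with list means of 5.59 to 6.33, 4.69 to 4.87 and 4.64 to 5.68 in the same order. Of 10 neutrophil and monocyte markers 1 (Camp) rose here and 0 in CBP-deleted cells (7 and 4 at an unadjusted p below 0.05), with list means of 5.5 to 7.2 in the p300-deleted, 4.39 to 5.24 in the control and 5.35 to 7.03 in the CBP-deleted arrays. Of the Treg and CD4 T cell markers Cd4 (1.58-fold, adjusted p = 0.0214) and Cd3g (1.22-fold, adjusted p = 0.0307) rose and Foxp3 fell. Among markers of NK and CD8 T cells Ncr1 rose (2.69-fold, adjusted p = 0.0425), with 3 higher and 1 lower at an unadjusted p below 0.05. Among dendritic cell markers 0 of 5 passed in either knockout (1, Itgax, at an unadjusted p below 0.05 in p300-deleted cells). The part of these cells in the results was not tested.

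The knockouts were also set against each other, a comparison that does not use the control arrays' levels. CBP-deleted cells were lower than p300-deleted cells in 15 of the 42 genes and higher in 0, where 2.01% of all genes were lower and 3.20% higher. At an unadjusted p below 0.05, 23 of the 42 were lower and 0 higher, with the share of all genes not counted. Klf4 (2.16-fold), Jun (1.90-fold), Zfp36 (1.86-fold), Junb (1.77-fold) and Dusp1 (1.72-fold), a phosphatase of p38 and JNK, were among the 10 genes that differed at least 1.5-fold. Among all genes, 125 of the 249 that were lower reached 1.5-fold. The CBP-deleted arrays lay below the p300-deleted arrays in 25 genes and above them in 0, where 14.4% and 15.8% of all genes were separated. The difference was negative in 36 of 42 genes and in 6704 of all 12393 genes. Its median was -0.44 over the 42 genes against -0.02 over all genes. Without p300-deleted replicate 2 the count of 15 became 9. The plasma cell markers differed here too: 4 of 5 were lower in CBP-deleted cells, as was 1 of the 6 mast cell and basophil markers (Cpa3), while 0 of the 7 B cell markers passed (2 at an unadjusted p below 0.05). Ikzf4, a Treg factor, was lower in CBP-deleted cells (-0.63, adjusted p = 0.0213), the other 8 Treg and CD4 T cell markers did not pass, and 0 of 8 markers of NK and CD8 T cells did (6 at an unadjusted p below 0.05). Their part was not tested.

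**Figure D1:**
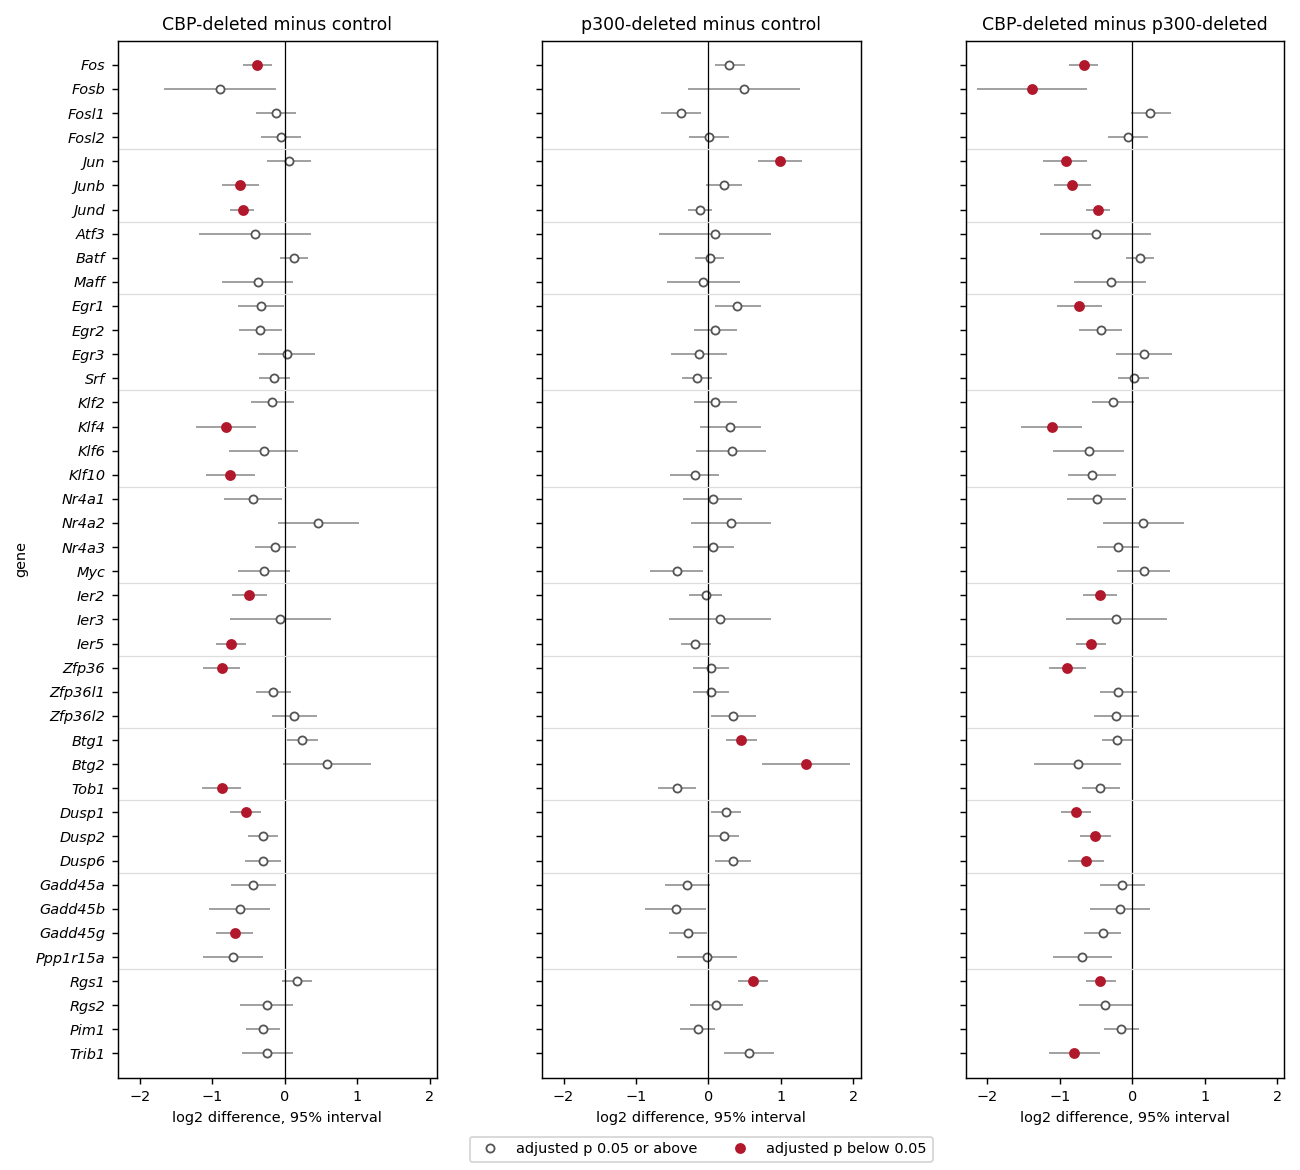
Log2 difference of each of the 42 genes (vertical axis, grouped by role) in the 3 comparisons, with 95% intervals from the limma fit over 9 arrays; filled points passed at an adjusted p below 0.05. The filled points number 11 left of zero in the first panel, 4 right of zero in the second and 15 left of zero in the third.

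By their calls the genes fell into 5 patterns and a remainder. A group of 8 genes, Fos, Junb, Jund, Klf4, Ier2, Ier5, Zfp36 and Dusp1, was lower in CBP-deleted cells than in both other groups. For Klf10, Tob1 and Gadd45g only the fall against the control passed, and for Fosb, Egr1, Dusp2, Dusp6 and Trib1 only the difference between the knockouts. Jun and Rgs1 rose in p300-deleted cells and differed between the knockouts, and Btg1 and Btg2 rose in p300-deleted cells without a difference that passed between the knockouts. The other 22 genes passed in 0 comparisons. Over all genes, 2.79% were lower in CBP-deleted cells than in the control and 2.01% lower than in p300-deleted cells. In p300-deleted cells 2.02% were higher than in the control. The share of all genes with each pattern was not counted, and the calls share arrays. The group means ran from CBP-deleted over control to p300-deleted in 20 of 42 genes (17% of all genes had this order) and from CBP-deleted over p300-deleted to control in 11 (22.8% of all genes).

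**Figure D2:**
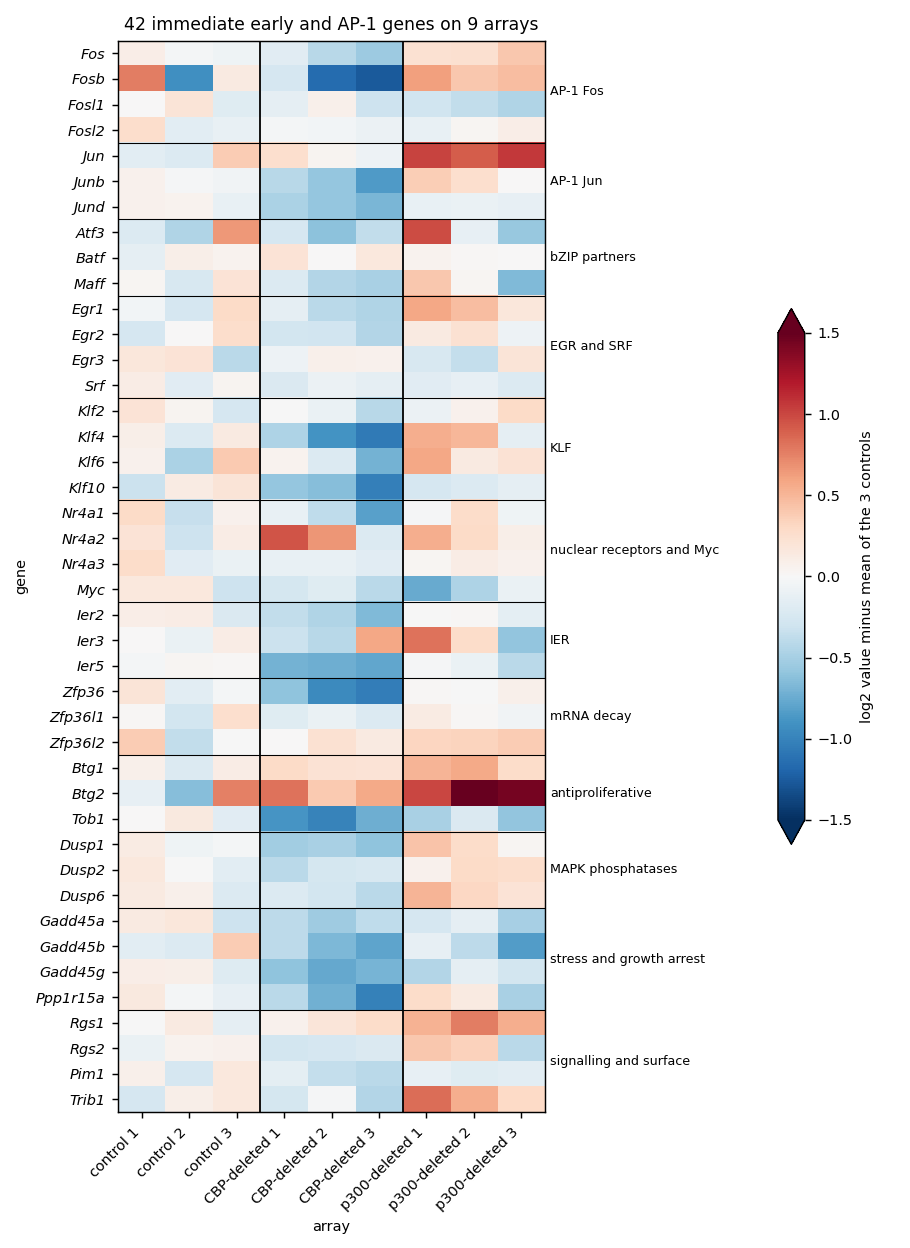
Heat map of the 42 genes (rows, grouped by role) on the 9 arrays (columns); the colour is the log2 value minus the mean of the 3 controls, with the scale ending at 1.5 in either direction. Blue cells fill most rows of the CBP-deleted columns, where 7 to 9 of the 42 genes lay above the control mean, against 20 to 28 in the p300-deleted columns.

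Promoter sequences were looked up in RefSeq (GRCm38.p6) from 250 bases before the annotated start to 50 bases after it. There were 40 such windows for 33 of the 42 genes, and Fosl1, Egr1, Egr3, Klf10, Myc, Ier2, Zfp36l2, Rgs1 and Trib1 had no entry. The bases before the start are shown for 6 genes that passed, chosen because their windows hold the motifs of the signals above. Fos, Junb, Klf4, Zfp36 and Dusp1 were lower in CBP-deleted cells than in both other groups, and Btg2 rose in p300-deleted cells. Jund and Ier5, which were also lower in CBP-deleted cells than in both other groups, had windows without a match to any motif searched. The same held for Jun, Dusp6 and Gadd45g, which passed as well. Fosb, Btg1, Tob1 and Dusp2 passed and had matches but are not shown. Motifs further upstream than the windows were not searched. Capitals mark motif matches, and each sequence runs 5′ to 3′ towards the start on the gene's own strand.
Fos: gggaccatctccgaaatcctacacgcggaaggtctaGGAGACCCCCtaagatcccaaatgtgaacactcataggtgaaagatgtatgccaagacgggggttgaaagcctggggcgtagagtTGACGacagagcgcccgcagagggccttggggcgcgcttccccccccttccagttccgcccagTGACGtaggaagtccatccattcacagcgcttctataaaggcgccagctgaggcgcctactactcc
Junb: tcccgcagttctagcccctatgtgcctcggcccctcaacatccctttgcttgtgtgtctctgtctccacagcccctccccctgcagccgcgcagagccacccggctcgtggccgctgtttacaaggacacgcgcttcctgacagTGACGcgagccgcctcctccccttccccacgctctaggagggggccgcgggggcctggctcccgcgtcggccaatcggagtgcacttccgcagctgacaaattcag
Klf4: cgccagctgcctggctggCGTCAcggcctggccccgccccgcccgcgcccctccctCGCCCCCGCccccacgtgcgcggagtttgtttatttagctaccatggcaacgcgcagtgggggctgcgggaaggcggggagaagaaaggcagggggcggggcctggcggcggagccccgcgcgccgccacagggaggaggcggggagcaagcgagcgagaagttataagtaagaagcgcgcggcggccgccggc
Zfp36: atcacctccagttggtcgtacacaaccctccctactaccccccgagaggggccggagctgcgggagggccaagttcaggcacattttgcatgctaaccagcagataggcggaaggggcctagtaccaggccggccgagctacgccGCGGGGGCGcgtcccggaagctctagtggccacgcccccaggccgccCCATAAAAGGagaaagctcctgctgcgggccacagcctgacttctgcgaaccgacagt
Dusp1: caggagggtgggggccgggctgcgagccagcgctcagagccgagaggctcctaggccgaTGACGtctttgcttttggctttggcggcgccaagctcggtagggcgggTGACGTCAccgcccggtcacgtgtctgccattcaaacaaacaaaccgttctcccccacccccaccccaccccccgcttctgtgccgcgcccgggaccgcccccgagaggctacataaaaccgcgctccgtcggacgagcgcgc
Btg2: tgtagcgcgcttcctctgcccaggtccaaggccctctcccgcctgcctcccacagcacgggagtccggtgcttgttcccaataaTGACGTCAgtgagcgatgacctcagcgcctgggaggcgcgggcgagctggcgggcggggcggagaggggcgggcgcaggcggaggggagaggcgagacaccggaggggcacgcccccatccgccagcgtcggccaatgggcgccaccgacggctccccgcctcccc
These are chr12:85473640-85473889 on the plus strand for Fos and, on the minus strand, chr8:84978749-84978998 for Junb, chr4:55532476-55532725 for Klf4, chr7:28379229-28379478 for Zfp36, chr17:26508473-26508722 for Dusp1 and chr1:134079156-134079405 for Btg2.

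In the Fos sequence the capitals are an NF-kappaB match read on the opposite strand (-214 to -205 from the start) and 2 copies of the CRE core TGACG (-129 to -125 and -66 to -62). Junb holds 1 CRE core (-106 to -102). Klf4 holds a CRE core (-232 to -228) and an EGR site (-194 to -186), both on the opposite strand. Zfp36 has an EGR site (-105 to -97) and a CArG box (-58 to -49), the element that SRF binds. Dusp1 has a CRE core (-191 to -187) and a full CRE (-143 to -136), and Btg2 has a full CRE (-166 to -159). No motif searched was present in all 5 of the genes shown that were lower in CBP-deleted cells, and full CREs stand before one of them (Dusp1) and before Btg2.

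Over all 40 windows, searched on both strands, the CRE core TGACG was found in 57.5%, against 20.8% of the 32851 windows of all genes, and the full CRE TGACGTCA, which contains the core on each strand, in 10% (Btg2, Dusp1, Maff and Ppp1r15a) against 1.79%. CArG boxes were found in 15% against 1.63%, in Egr2, Srf and Zfp36. By gene these were 3 of 33, against 1.81% of all genes, since Egr2 counts with several windows. EGR sites (GCGTGGGCG or GCGGGGGCG) were found in 22.5% against 3.47%, and NF-kappaB sites in 15% against 4.51%. The AP-1 site (TGACTCA or TGAGTCA) was found in 0 of 40 windows, against 5.20% of all. The windows were richer in G and C than those of the other genes measured (median 62.7% against 59.0%, and 52.7% over all windows), and whether this sets the motif shares was not tested. Windows of 1 gene with several starts overlap, so they are not independent, and a match is a description of letters, not a bound site.

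**Figure D3:**
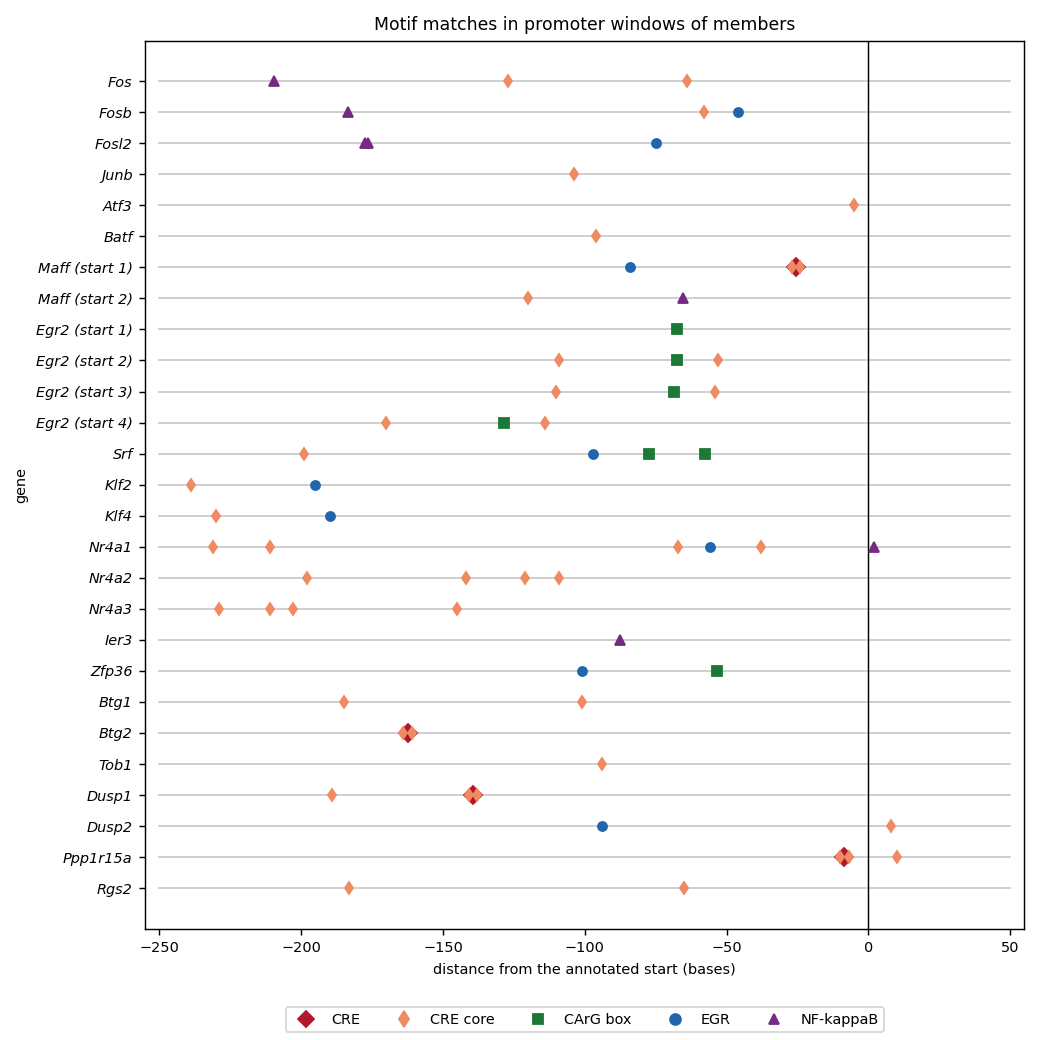
Motif matches in the RefSeq windows of 23 of the genes (rows, 27 windows), by distance from the annotated start in bases; a full CRE is drawn with the 2 cores it contains. CRE cores are spread over the windows, and the CArG boxes lie upstream of the start in the rows of Egr2, Srf and Zfp36.

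Of the Fos subunits, which cannot pair with each other and need a Jun partner, Fos and Fosb passed in at least 1 comparison. Fos, the founding member, read 12.61, 12.48 and 12.44 in control replicates 1 to 3, 12.34, 12.09 and 11.97 in the CBP-deleted arrays and 12.74, 12.75 and 12.92 in the p300-deleted arrays. The 3 groups did not overlap, with CBP-deleted lowest and p300-deleted highest. CBP-deleted cells were 1.30-fold below the control (log2 -0.38, SE 0.09, adjusted p = 0.0426) and 1.59-fold below p300-deleted cells (log2 -0.67, SE 0.09, adjusted p = 0.00273), while the 0.29 by which p300-deleted cells exceeded the control did not pass (adjusted p = 0.110). The difference between the knockouts passed in all 19 alternative settings, but the fall against the control passed in only 7: it was lost without CBP-deleted replicate 2, CBP-deleted replicate 3 or control replicate 1 (adjusted p = 0.142, 0.183 and 0.151) and without any of the p300-deleted replicates 1, 2 or 3 (0.0590, 0.0640 and 0.0508). The fall of Fos was also lost with quantile normalization, the replicate block, no trend or only the 2 groups compared. The same held with the mean of all probe sets and with every probe set tested on its own. Fosb, a subunit that exists in long and short forms, spread widely. It read 10.08, 8.39 and 9.45 in the controls, 9.06, 8.15 and 8.05 in the CBP-deleted and 9.92, 9.72 and 9.77 in the p300-deleted arrays. The controls overlapped with both other groups, and all p300-deleted arrays lay above all CBP-deleted ones. The difference of -1.38 between the knockouts (2.61-fold, SE 0.35) passed at 0.0427. It was lost without CBP-deleted replicate 2 or 3 (adjusted p = 0.168 and 0.159) and without p300-deleted replicate 1, 2 or 3 (0.142, 0.115 and 0.103). Other settings that ended this call were no trend, the mean of all probe sets and every probe set tested on its own. Fosl1 and Fosl2, the FRA-1 and FRA-2 subunits, passed in 0 comparisons. Fosl1 read 2.74 to 3.38, at background, and Fosl2 read 3.88 to 4.30.

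All 3 Jun genes differed between the knockouts. Jun itself, the partner that gives AP-1 its strongest transactivation with Fos, read 11.22, 11.17 and 11.76 in the controls, 11.63, 11.42 and 11.30 in the CBP-deleted and 12.39, 12.29 and 12.44 in the p300-deleted arrays. The p300-deleted arrays stood clear above the other 6, which overlapped. It rose 1.98-fold in p300-deleted cells (log2 0.99, SE 0.14, adjusted p = 0.00649), and CBP-deleted cells were 1.90-fold below p300-deleted ones (log2 -0.92, SE 0.14, adjusted p = 0.00365). Both calls held in 19 of 19 alternatives, and CBP-deleted cells differed from the control by 0.06 (95% interval -0.24 to 0.37). A second, dimmer probe set of Jun gave a smaller rise in p300-deleted cells that did not pass (0.35, SE 0.09, adjusted p = 0.0755 over all probe sets), and it gave -0.32 (SE 0.09, adjusted p = 0.0918) for CBP-deleted cells against the control. Between the knockouts it passed as well (-0.67, adjusted p = 0.00492). The values of Junb, which can oppose Jun and supports Treg effector programmes, were 12.04, 11.96 and 11.93 in the controls, 11.56, 11.40 and 11.13 in the CBP-deleted and 12.35, 12.23 and 11.98 in the p300-deleted arrays. The CBP-deleted arrays were the 3 lowest, and the other groups overlapped. Junb fell 1.53-fold against the control (log2 -0.61, SE 0.11, adjusted p = 0.0160) and was 1.77-fold below p300-deleted cells (log2 -0.83, adjusted p = 0.00268). The first of these calls was lost without CBP-deleted replicate 2, CBP-deleted replicate 3 or control replicate 1 (adjusted p = 0.0609, 0.0656 and 0.0669). Jund, the subunit that is present in resting cells, read 12.10, 12.09 and 11.93 in the controls, 11.57, 11.46 and 11.35 in the CBP-deleted and 11.93, 11.94 and 11.92 in the p300-deleted arrays. Again the CBP-deleted arrays were the 3 lowest. It fell 1.5-fold against the control (log2 -0.58, SE 0.08, adjusted p = 0.00286) and was 1.39-fold below p300-deleted cells (log2 -0.47, adjusted p = 0.00488), in 19 of 19 alternatives each.

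**Figure D4:**
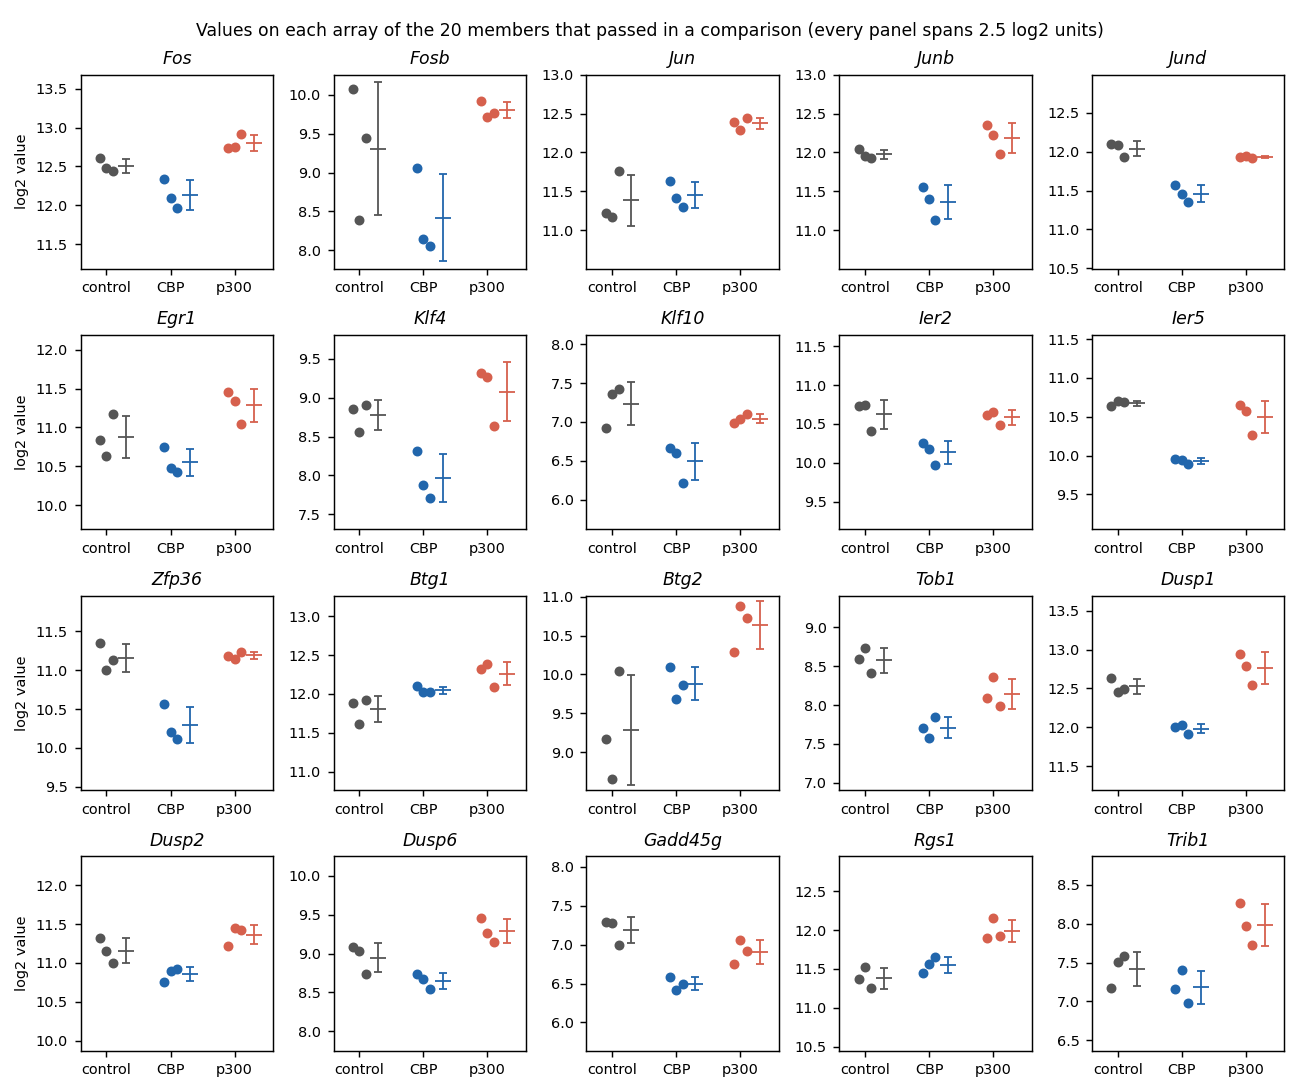
Log2 value on each array (points) of the 20 genes that passed in at least 1 comparison, by group, with the mean and SD of 3 arrays as cross and bar; each panel spans 2.5 log2 units. In the panels of Junb, Jund, Ier5, Zfp36 and Dusp1 the CBP-deleted points are the 3 lowest, and in those of Jun and Rgs1 the p300-deleted points are the 3 highest.

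The bZIP partners passed in 0 of 3 comparisons, also at an unadjusted p below 0.05. Batf, which pairs with Jun proteins and IRF4 in lymphocytes and is required for tissue Treg cells, was steady at 8.95 to 9.29 on all 9 arrays. Its differences from the control were 0.13 (95% interval -0.07 to 0.32) in CBP-deleted and 0.02 (-0.18 to 0.21) in p300-deleted cells. Atf3, a stress-induced repressor, ranged from 4.44 to 6.04 with its highest values in p300-deleted replicate 1 (6.04) and control replicate 3 (5.71). Maff, a small Maf protein without a transactivation domain, read 4.83 to 5.90, and neither gene's groups separated.

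Among EGR factors and SRF, Egr1 passed between the knockouts. Egr1 is a zinc finger factor downstream of ERK and SRF. It read 10.84, 10.63 and 11.17 in the controls, 10.75, 10.48 and 10.43 in the CBP-deleted and 11.46, 11.34 and 11.05 in the p300-deleted arrays. The controls overlapped with both knockouts, and the knockouts did not overlap. CBP-deleted cells were 1.66-fold below p300-deleted cells (log2 -0.73, SE 0.14, adjusted p = 0.0122), while the differences from the control were -0.33 (adjusted p = 0.222) and 0.40 (adjusted p = 0.144). The call was lost without CBP-deleted replicate 2 or 3 (adjusted p = 0.0666 and 0.0547) or p300-deleted replicate 1 or 2 (0.0591 and 0.0581). Egr2 and Egr3, NFAT targets that restrain T cell activation, did not pass. Egr2 read 6.88 to 7.05 in CBP-deleted arrays, below all controls (7.07 to 7.58) and all p300-deleted arrays (7.24 to 7.55), with differences of -0.34 (adjusted p = 0.180) and -0.43 (adjusted p = 0.0957). Egr3 read 5.97 to 6.58 with overlapping groups. Srf read 7.92 to 8.25, and its differences were between -0.16 and 0.02 in the 3 comparisons.

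Of the 4 KLF factors, 2 fell in CBP-deleted cells. Klf4, which restrains proliferation of T cells, read 8.86, 8.56 and 8.91 in the controls, 8.31, 7.87 and 7.71 in the CBP-deleted and 9.32, 9.27 and 8.64 in the p300-deleted arrays. All CBP-deleted arrays were below the other 6. It fell 1.75-fold against the control (log2 -0.81, SE 0.19, adjusted p = 0.0355) and was 2.16-fold below p300-deleted cells (log2 -1.11, SE 0.19, adjusted p = 0.00665), the latter in 19 of 19 alternatives. The fall against the control was lost without CBP-deleted replicate 2 or 3 (adjusted p = 0.120 and 0.150), p300-deleted replicate 2 (0.0504), or control replicate 1 or 3 (0.118 and 0.0540). With every probe set tested on its own the call was also lost (0.0523), while a second probe set of Klf4 passed there (0.0203). Klf10, a TGF-beta-induced factor that acts in Treg cells, read 6.92, 7.36 and 7.43 in the controls, 6.66, 6.60 and 6.22 in the CBP-deleted and 6.99, 7.04 and 7.10 in the p300-deleted arrays. The CBP-deleted arrays were again lowest. The fall of 1.68-fold (log2 -0.75, SE 0.15, adjusted p = 0.0216) was lost without any of the CBP-deleted replicates 1, 2 or 3 (adjusted p = 0.0542, 0.0631 and 0.0914), and the -0.55 between the knockouts did not pass (adjusted p = 0.0603). Fitting only the 2 groups compared ended the fall of Klf10 as well. Klf2, the factor of T cell quiescence and lymph node homing, read 11.36 to 12.07 and did not pass, nor did Klf6 (9.20 to 10.49), whose largest difference was -0.60 between the knockouts (adjusted p = 0.158). The differences of all 4 were negative against the control (-0.81 to -0.17) and between the knockouts (-1.11 to -0.27).

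The NR4A receptors, which follow antigen receptor strength and are needed for Treg development, passed in 0 comparisons (Nr4a1 had an unadjusted p below 0.05 in 2 of them). Nr4a1 read 9.95 to 10.59 in the controls, 9.49 to 10.19 in the CBP-deleted and 10.23 to 10.57 in the p300-deleted arrays, with differences of -0.43 (adjusted p = 0.209) for CBP-deleted and 0.06 (adjusted p = 0.917) for p300-deleted cells against the control. Nr4a2 ran the other way in CBP-deleted cells, by 0.46 (adjusted p = 0.336), with 2 arrays at 6.60 and 6.32 and replicate 3 at 5.45. Nr4a3 read 4.64 to 5.08. Myc, the driver of growth and metabolism, read 8.75 to 9.22 in controls, 8.65 to 8.88 in CBP-deleted and 8.30 to 8.96 in p300-deleted arrays. Its mean was lower in both knockouts, by -0.29 (adjusted p = 0.367) and -0.44 (adjusted p = 0.169), so it did not pass.

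Of the IER genes, Ier2 and Ier5 fell in CBP-deleted cells. Ier5, which modulates heat shock factor activity, read 10.64, 10.70 and 10.69 in the controls, 9.96, 9.94 and 9.89 in the CBP-deleted and 10.65, 10.57 and 10.27 in the p300-deleted arrays. The CBP-deleted arrays lay close together and below the other 6. It fell 1.67-fold against the control (log2 -0.74, SE 0.09, adjusted p = 0.00280) and was 1.48-fold below p300-deleted cells (log2 -0.57, SE 0.09, adjusted p = 0.00530). Ier5 had 3 probe sets, and 1 of the others gave a difference of the opposite sign against the control (0.27). With their mean the fall was -0.41 (adjusted p = 0.109). The difference between the knockouts did not pass with the mean either (adjusted p = 0.0655). Ier2, a nuclear protein, read 10.73, 10.74 and 10.41 in the controls, 10.26, 10.18 and 9.97 in the CBP-deleted and 10.62, 10.65 and 10.48 in the p300-deleted arrays. All CBP-deleted arrays were below the others. The falls were 1.40-fold against the control (log2 -0.49, SE 0.11, adjusted p = 0.0272) and 1.36-fold against p300-deleted cells (log2 -0.45, adjusted p = 0.0320). The first was lost without any of the CBP-deleted replicates 1, 2 or 3 (adjusted p = 0.0618, 0.0796 and 0.123) and without control replicate 1 (0.103). Fitting only the 2 groups compared ended it too. The second was lost without CBP-deleted replicate 2 or 3 (0.101 and 0.142), without p300-deleted replicate 1, 2 or 3 (0.119, 0.129 and 0.0517), and with array medians subtracted (0.0519). Leaving out the trend ended it as well. Ier3, a survival factor, ranged from 4.76 to 6.16 with overlapping groups.

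Of the ZFP36 family, whose members bind AU-rich elements and bring mRNAs to decay, Zfp36 alone passed. It read 11.35, 11.0 and 11.13 in the controls, 10.56, 10.21 and 10.12 in the CBP-deleted and 11.18, 11.15 and 11.24 in the p300-deleted arrays. The CBP-deleted arrays lay apart below the other groups, which overlapped. Zfp36 fell 1.82-fold against the control (log2 -0.87, SE 0.12, adjusted p = 0.00351) and was 1.86-fold below p300-deleted cells (log2 -0.90, SE 0.12, adjusted p = 0.00205), each in 19 of 19 alternatives. Between p300-deleted cells and the control the difference was 0.03 (95% interval -0.22 to 0.28). Zfp36l1 read 10.56 to 11.08 and Zfp36l2 12.17 to 12.92. Their differences were between -0.22 and 0.34 in the 3 comparisons and did not pass. Whether Zfp36 differs from its relatives in its response was not tested.

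The BTG and TOB proteins recruit deadenylases to mRNAs and restrain the cell cycle, and they moved in different directions. Btg2, also a target of p53, read 9.17, 8.65 and 10.05 in the controls, 10.10, 9.68 and 9.86 in the CBP-deleted and 10.29, 10.88 and 10.73 in the p300-deleted arrays. The p300-deleted arrays were the 3 highest, and control replicate 3 lay within the CBP-deleted range. Btg2 rose 2.54-fold in p300-deleted cells (log2 1.34, SE 0.28, adjusted p = 0.0227), which was lost without p300-deleted replicate 2 or 3 (adjusted p = 0.111 and 0.0662) or control replicate 1 (0.0784). Fitting only the 2 groups compared also ended that call. In CBP-deleted cells Btg2 was 0.59 above the control (adjusted p = 0.258), and without control replicate 3 this difference was 0.97 and passed at 0.0106. A second probe set of Btg2 gave 0.12 there with all arrays (SE 0.14, adjusted p = 0.703 over all probe sets). In p300-deleted cells it gave 0.93 (SE 0.14, adjusted p = 0.0133). Btg1, a gene of quiescent lymphocytes, read 11.89, 11.61 and 11.92 in the controls, 12.10, 12.03 and 12.02 in the CBP-deleted and 12.32, 12.38 and 12.09 in the p300-deleted arrays. On the probe set used both knockouts lay above the controls, and they overlapped with each other. In CBP-deleted cells a second probe set gave -0.09 against the control (SE 0.13, adjusted p = 0.767 over all probe sets). The rise of 1.37-fold in p300-deleted cells (log2 0.45, SE 0.10, adjusted p = 0.0274) rests on 1 of 2 probe sets: the other gave 0.01, and their mean 0.23 (adjusted p = 0.277). It was also lost without p300-deleted replicate 1 or 2 (0.0900 and 0.132), control replicate 1 (0.0548) or CBP-deleted replicate 2 (0.0527). Leaving out the trend or fitting only the 2 groups compared ended it as well. Tob1, which helps to keep T cells quiescent, read 8.59, 8.73 and 8.41 in the controls, 7.70, 7.58 and 7.85 in the CBP-deleted and 8.09, 8.36 and 7.99 in the p300-deleted arrays. The 3 groups did not overlap, with controls highest and CBP-deleted arrays lowest. Tob1 fell 1.83-fold in CBP-deleted cells (log2 -0.87, SE 0.12, adjusted p = 0.00452) in 19 of 19 alternatives. The -0.43 of p300-deleted cells (adjusted p = 0.0747) and the -0.44 between the knockouts (adjusted p = 0.0641) did not pass.

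The 3 measured MAP kinase phosphatases were all lower in CBP-deleted than in p300-deleted cells. Dusp1, the nuclear phosphatase of p38 and JNK, read 12.64, 12.45 and 12.49 in the controls, 12.00, 12.03 and 11.92 in the CBP-deleted and 12.95, 12.79 and 12.55 in the p300-deleted arrays. The CBP-deleted arrays were the 3 lowest. It fell 1.46-fold against the control (log2 -0.54, SE 0.10, adjusted p = 0.0125) and was 1.72-fold below p300-deleted cells (log2 -0.78, SE 0.10, adjusted p = 0.00169), the latter in 19 of 19 alternatives. Leaving out CBP-deleted replicate 1, 2 or 3 or control replicate 1 ended the first call (adjusted p = 0.0536, 0.0514, 0.0656 and 0.0583). Dusp2, a phosphatase of activated lymphocytes, read 11.32, 11.15 and 11.00 in the controls, 10.75, 10.90 and 10.92 in the CBP-deleted and 11.22, 11.45 and 11.42 in the p300-deleted arrays. CBP-deleted arrays were below all others. The difference between the knockouts was 1.42-fold (log2 -0.51, SE 0.10, adjusted p = 0.0105), and it was lost without CBP-deleted replicate 1 (0.0529) or p300-deleted replicate 2 (0.0574). Dusp6, the cytoplasmic phosphatase of ERK and a transcript often read as a sign of ERK activity, gave 9.08, 9.03 and 8.74 in the controls, 8.74, 8.67 and 8.54 in the CBP-deleted and 9.46, 9.26 and 9.15 in the p300-deleted arrays. The p300-deleted arrays were highest, and control replicate 3 was level with the highest CBP-deleted value. CBP-deleted cells were 1.56-fold below p300-deleted cells (log2 -0.64, SE 0.11, adjusted p = 0.00783) in 19 of 19 alternatives, and neither knockout passed against the control (-0.30, adjusted p = 0.154, and 0.34, adjusted p = 0.124).

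The GADD45 proteins are stress sensors that activate p38 signalling, and Ppp1r15a lets translation resume after stress. All 4 genes had lower means in CBP-deleted cells. In p300-deleted cells the GADD45 genes had lower means too, while Ppp1r15a differed from the control by -0.02 (SE 0.19, adjusted p = 0.969). In all 4 genes the CBP-deleted arrays lay below all controls, where 14.5% of all genes did. Of the 4 only Gadd45g passed. It read 7.29, 7.28 and 7.0 in the controls, 6.59, 6.42 and 6.49 in the CBP-deleted and 6.75, 7.06 and 6.92 in the p300-deleted arrays, with the CBP-deleted arrays lowest. It fell 1.61-fold against the control (log2 -0.69, SE 0.12, adjusted p = 0.0122), a call lost without CBP-deleted replicate 2, CBP-deleted replicate 3 or control replicate 1 (adjusted p = 0.0617, 0.0592 and 0.0544). Ppp1r15a read 11.00, 10.82 and 10.73 in the controls, 10.45, 10.13 and 9.84 in the CBP-deleted and 11.12, 10.99 and 10.36 in the p300-deleted arrays. Its differences were -0.71 for CBP-deleted cells against the control (1.64-fold, adjusted p = 0.0524) and -0.69 between the knockouts (adjusted p = 0.0572), and both passed without p300-deleted replicate 3 (adjusted p = 0.0265 and 0.0124) or control replicate 3 (0.0437 and 0.0488). The second also passed without CBP-deleted replicate 1 (0.0446). Gadd45a and Gadd45b differed by -0.43 (adjusted p = 0.109) and -0.62 (adjusted p = 0.0917) in CBP-deleted and by -0.29 (adjusted p = 0.302) and -0.45 (adjusted p = 0.228) in p300-deleted cells.

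Among the regulators of G protein and kinase signals, Rgs1, which speeds the shut-off of chemokine receptor signals, read 11.37, 11.52 and 11.25 in the controls, 11.45, 11.56 and 11.65 in the CBP-deleted and 11.90, 12.15 and 11.92 in the p300-deleted arrays. The p300-deleted arrays were the 3 highest, and the other groups overlapped. Rgs1 rose 1.53-fold in p300-deleted cells (log2 0.61, SE 0.09, adjusted p = 0.00819) in 19 of 19 alternatives. CBP-deleted cells were 1.35-fold below them (log2 -0.44, SE 0.09, adjusted p = 0.0193), a call lost without CBP-deleted replicate 1 or 2 or p300-deleted replicate 2 (0.0913, 0.0813 and 0.0930). Trib1, a pseudokinase that brings C/EBP factors to degradation, read 7.17, 7.51 and 7.58 in the controls, 7.16, 7.40 and 6.98 in the CBP-deleted and 8.26, 7.97 and 7.72 in the p300-deleted arrays. Again the p300-deleted arrays stood above the other 6. The difference between the knockouts was 1.74-fold (log2 -0.80, SE 0.16, adjusted p = 0.0141), and the 0.56 of p300-deleted cells against the control did not pass (adjusted p = 0.0764). The former was lost without CBP-deleted replicate 1 or 3 (0.0529 and 0.0657), without p300-deleted replicate 1 or 2 (0.0626 and 0.0559), and with the mean of its 2 probe sets (-0.59, 0.0702). Rgs2 (8.65 to 9.46) and Pim1 (9.75 to 10.31), a kinase induced by cytokines, did not pass.

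Samples of one group also differed from each other in these genes. The median SD over the 3 arrays of a group was 0.22 in controls, 0.17 in p300-deleted and 0.14 in CBP-deleted cells, against 0.16, 0.11 and 0.10 over all genes. Within the CBP-deleted group, 31 of the 42 genes lay above the group mean in replicate 1, 24 in replicate 2 and 11 in replicate 3. In the p300-deleted group these counts were 25, 25 and 12, and among the controls 29, 16 and 22. Over all genes, 43.4% to 54.6% lay above the group mean on an array. The median distance of the 42 genes from the control mean was -0.23, -0.33 and -0.41 on the CBP-deleted arrays, outside the -0.05 to 0.08 of the controls, and 0.13, 0.12 and -0.02 on the p300-deleted arrays.

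Leaving out 1 array also brought past the threshold genes that had not passed. Without control replicate 3, CBP-deleted cells were lower than the control in Dusp2 (-0.38, adjusted p = 0.0287), Dusp6 (-0.40, adjusted p = 0.0342) and Gadd45a (-0.58, adjusted p = 0.0156), and without control replicate 2 in Fosb (-1.35, adjusted p = 0.0174) and Pim1 (-0.42, adjusted p = 0.0202). In p300-deleted cells Egr1 (0.55, adjusted p = 0.0303) and Trib1 (0.64, adjusted p = 0.0489) were higher and Myc (-0.60, adjusted p = 0.0433) and Tob1 (-0.52, adjusted p = 0.0326) lower without control replicate 3, and Zfp36l2 was higher without control replicate 1 (0.53, adjusted p = 0.0378). Between the knockouts Egr2, Gadd45g and Btg2 passed without control replicate 3 (adjusted p = 0.0369, 0.0363 and 0.0193), Tob1 without control replicate 2 or 3 (0.0361 and 0.0366), and Klf10 without control replicate 1, 2 or 3 (0.0332, 0.0448 and 0.0376), at unchanged differences since the controls enter there only through the spread. Rgs2 passed without p300-deleted replicate 3 (-0.62, adjusted p = 0.00884).

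Genes around the pathway were read from 4 further lists. Of 24 listed members of the upstream MAP kinase cascade and SRF regulators 16 were measured. Among these 1 fell and 0 rose in CBP-deleted cells, 0 fell and 1 rose in p300-deleted cells, and 0 passed between the knockouts (3 at an unadjusted p below 0.05), with medians of -0.09, 0.01 and -0.03. At an unadjusted p below 0.05, 3 were higher and 3 lower in CBP-deleted cells, whose arrays lay above the controls in 4 of the 16 genes and below them in 4, where 10% and 14.5% of all genes did. The gene that fell was Mrtfa, an actin-regulated coactivator of SRF (-0.42, adjusted p = 0.0315, passing in 12 of 19 alternatives), and the gene that rose was Mapk8, the kinase JNK1 (0.65, adjusted p = 0.0258, in 15 of 19). Between the knockouts the smallest adjusted p were those of Elk4 (-0.26) and Elk3 (-0.23), SRF partners, at 0.152 each. Of 21 other bZIP factors and AP-1 partners, Crem, a cyclic AMP-responsive factor, rose by 0.75 (adjusted p = 0.0447, in 7 of 19), while Cebpb fell by 0.81 (adjusted p = 0.0196, in 15 of 19) and Bach1, a repressor at Maf sites, fell by 0.43 (adjusted p = 0.0229, in 14 of 19) in CBP-deleted cells. In p300-deleted cells 0 passed (3 at an unadjusted p below 0.05), with Nfil3 at -0.39 (adjusted p = 0.0962) and Crem at 0.50 (adjusted p = 0.176). Between the knockouts Bach1 was lower in CBP-deleted cells (-0.42, adjusted p = 0.0182, in 13 of 19). The medians of this list were -0.11, 0.00 and -0.10. Beside both lists, the all-gene share with a lower call was 2.79%, 2.04% and 2.01% in the 3 comparisons. The share with a higher call was 2.14%, 2.02% and 3.20%. Lists of 16 and 21 genes are short, so a single call says little.

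Of 37 other early response genes 35 were measured. Among these 7 fell and 1 rose in CBP-deleted cells, 0 fell and 4 rose in p300-deleted cells, and 9 were lower and 0 higher in CBP-deleted than in p300-deleted cells, with medians of -0.21, 0.01 and -0.25. Over all genes 2.79% fell and 2.14% rose in CBP-deleted cells, 2.04% and 2.02% in p300-deleted cells, and 2.01% were lower and 3.20% higher between the knockouts. At an unadjusted p below 0.05, 13 of the 35 were lower and 2 higher in CBP-deleted cells, with the share of all genes not counted. The largest falls were those of Id3, an inhibitor of E proteins that Treg cells need (-1.19, SE 0.14, adjusted p = 0.00260, in 19 of 19 alternatives), Id2 (-0.70, adjusted p = 0.0334, in 11), Nab2, the corepressor of EGR factors (-0.67, adjusted p = 0.00898, in 18), and Plk3, a stress kinase (-0.62, adjusted p = 0.0304, in 14). In p300-deleted cells Rgs16, a relative of Rgs1, rose by 1.02 (adjusted p = 0.0101, in 18), Spry1, an inhibitor of ERK signalling, by 0.68 (adjusted p = 0.00572, in 19), Dusp14 by 0.52 (adjusted p = 0.0382, in 8) and Klf9 by 0.45 (adjusted p = 0.0244, in 12). Between the knockouts Rgs16 (-1.16, adjusted p = 0.00308, in 19), Plk3 (-0.88, adjusted p = 0.00474, in 19), Klf9 (-0.77, adjusted p = 0.00169, in 18) and Id3 (-0.64, adjusted p = 0.0251, in 15) differed most. Dusp14 rose in both knockouts, by 0.59 in CBP-deleted cells (adjusted p = 0.0224, in 14).

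Heat shock genes, which cell handling can also induce, went both ways. Of 10 measured, Hspe1 rose (0.46, adjusted p = 0.0437, in 4 of 19 alternatives) and Hspb1 fell (-0.58, adjusted p = 0.0495, in 8) in CBP-deleted cells, and Hsp90aa1 fell in p300-deleted cells (-0.37, adjusted p = 0.0425, in 6). Between the knockouts Hspe1 (0.44, adjusted p = 0.0489, in 6) and Hsp90aa1 (0.38, adjusted p = 0.0273, in 11) were higher and Hspb1 (-0.75, adjusted p = 0.0142, in 14) lower in CBP-deleted cells. The medians were 0.00, 0.01 and -0.03. In the same order, lower calls made up 2.79%, 2.04% and 2.01% of all genes. Higher calls made up 2.14%, 2.02% and 3.20%. With 10 genes measured, single calls say little.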

How the data were processed

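Per the labels, RNA of CD4+CD25+ Treg cells was amplified, labelled with biotin and hybridised to 9 single-channel arrays, 3 per group. The authors deposited 1 log2 value per probe set and array, summarised with RMA per the submitters' processing notes, with no version given in the sources used here, and the values were used as deposited. Of 22690 probe sets, 64 controls were set aside, and of the rest 20380 carried 1 gene symbol, 691 several and 1555 none in the platform annotation. The brightest probe set of each gene gave 12393 genes. Arrays have no depth, and their number limits the precision.

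Comparisons were fitted with limma 3.58.1 in R 4.3.3 (lmFit, eBayes with a trend), fitting all 9 arrays together with 1 mean for each group and 6 residual degrees of freedom, two-sided, with Benjamini-Hochberg adjustment over all genes at 0.05. The comparisons with the control share its arrays. With 3 arrays in each group an exact permutation test gives no p below 0.1, and none was run. The procedure was tested on simulated data. The members and all gene, marker and motif lists were chosen with earlier results of these data known. Named genes were every member, with array values for those that passed, and up to 4 passing genes per comparison of each other list, or with none passing up to 2 given as values. The 19 alternatives covered probe set choice, a filter on means below log2 5, the trend, scaling, array weights, the replicate block, the groups fitted and leaving out each array. Promoter motifs were counted on both strands of RefSeq windows.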

Additional observations from a re-analysis of the deposited data

Results flagged for a closer look

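In 3 genes a probe set that the comparisons did not use, because another probe set of the gene was brighter, passed where the one used did not, when all 20380 probe sets with 1 symbol were tested on their own. The second probe set of Gadd45b gave -0.86 for CBP-deleted cells against the control (limma adjusted p = 0.0412), where the one used gave -0.62. Pim1 gave -0.45 in the same comparison (adjusted p = 0.0358), where the one used gave -0.30. For Btg2 the second probe set gave -0.81 between CBP-deleted and p300-deleted cells (adjusted p = 0.0126), where the one used gave -0.75. The signs of the paired probe sets were the same in all 3 genes. With 3 arrays per group, single arrays that stand apart were not tested.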

How the results depend on the processing

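Among 2382 member values recomputed under 19 alternatives, 0 reversed a call. The count of 11 genes changed in CBP-deleted cells became 19 with array weights and ranged from 4 to 15 with 1 array left out. The count of 4 in p300-deleted cells became 2 when only the 2 groups compared were fitted and ranged from 2 to 8, and the count of 15 between the knockouts ranged from 9 to 21. Counts of genes at least 1.5-fold different ranged from 3 to 10, 1 to 4 and 6 to 12 with 1 array left out. The median of the members ranged from 0.03 to 0.18 for p300-deleted cells against the control and from -0.52 to -0.36 between the knockouts. With the replicate block the counts were 11, 4 and 16. For samples with the same replicate number, the deviations from their group means were correlated over genes. The r was 0.27, -0.06 and 0.03 for CBP-deleted and control arrays and -0.07, 0.10 and -0.12 for p300-deleted and control arrays. Between the knockouts it was -0.21, -0.02 and -0.23. With 3 arrays per group these values cannot decide whether the numbers pair the samples. Over all genes, calls higher and lower were 265 and 346, 250 and 253, and 396 and 249 in the 3 comparisons. They were 828 and 927, 468 and 560, and 839 and 628 with array weights, 156 and 208, 160 and 166, and 312 and 212 with the replicate block, and 100 and 161, 99 and 66, and 828 and 558 with only the 2 groups compared. The causes were not tested. Values at the level of Xist (Fosl1) carry no difference that can be read.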
